A study of Arabidopsis thaliana with 4 samples.

Results

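Aux/IAA genes encode short-lived nuclear repressors of the auxin response, and 10 of them were followed here: IAA1, IAA2, IAA3, IAA5, IAA6, IAA7, IAA14, IAA17, IAA19 and IAA29. They were taken by locus from the tables of 33557 genes, and all 10 were present and tested in both. They belong to a family listed here with 29 members, of which the other 19 serve as a comparison. The choice of the 10 was made with earlier results of these data known. RNA came from Arabidopsis thaliana seedlings of the Col-0 background, aged 14 days, that carried the mutation hdp3-2 or asil1-2, and each mutant has 2 libraries. After 3 days of stratification at 4 °C, seedlings grew on agar plates with 2% sucrose at 22 °C in days of 16 h of light. The authors set each mutant against wild-type Col-0, whose data were deposited in a separate series, so the genotype and any difference between the series cannot be told apart. The series title speaks of a Harbinger transposase that its host has taken into service and of trihelix factors, the family of ASIL1, and the design asks whether HDP3 and ASIL1 act on the same transcripts. Each mutant stands for 1 allele, and hdp3-2, so named in the genotype, is written hpd3-2 in the sample titles.

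The label of asil1-2 was checked on its target. ASIL1 was listed by the authors' deposited table at 22.9 FPKM for wild type and 4.16 FPKM for asil1-2, with a Cuffdiff q of 0.00165, and the hdp3-2 table held 22.5 and 27.8 FPKM. No locus is paired with the name HDP3 in the names used here, so its transcript was not analysed here. The summed organelle levels listed for the mutants differed from those for wild type, and few genes carried these sums. Over 279 organelle genes the deposited levels summed to 2356660 FPKM in hdp3-2 against 784 for wild type, and to 262662 FPKM in asil1-2 against 799 for wild type. Of these sums, 3 genes in hdp3-2 and 1 in asil1-2, of 114 to 120 bases and listed at 0 in wild type, gave all but 1614 and 884 FPKM. Without them the organelle sum was 206% of wild type in hdp3-2 and 111% in asil1-2. Of the tested organelle genes, 17 of 83 were called in hdp3-2 and 0 of 74 in asil1-2. Over all tested genes, 622 of 20177 were called in hdp3-2 and 1702 of 20205 in asil1-2. The part that the organelle difference has in the Aux/IAA values was not tested. The calls of the members were the same with the organelle genes left out of the adjustment.

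Auxin acts by bringing an Aux/IAA protein together with an F-box receptor of the TIR1/AFB family, after which the repressor is marked for destruction. Until then the repressor holds an auxin response factor (ARF) inactive and brings a co-repressor of the TOPLESS family to the ARF's target genes. Most of the genes studied here are themselves rapidly switched on by auxin, which closes a feedback loop, and their transcripts are widely used as a readout of auxin signalling in seedlings.

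The receptor holds a short stretch of the protein, the degron, whose core is glycine, tryptophan and a pair of prolines. The coding bases of this stretch are shown because the degron is what makes these genes auxin-sensitive repressors. All 10 genes encode the core, as do 13 of the other 19. Each line runs 5′ to 3′ from 2 codons before to 3 codons after the core of 12 bases, which stands in capitals, in the coding strand of the first transcript model of the RefSeq annotation of TAIR10.1.
IAA1: atcgttGGATGGCCTCCAgtgagatct
IAA2: atcgttGGTTGGCCACCAgtgagatct
IAA3: attgttGGATGGCCACCAgttagatct
IAA5: gttgtgGGTTGGCCACCGgtttgttcg
IAA6: gcggtgGGATGGCCACCTgtgtgttct
IAA7: gtggtgGGATGGCCACCTgtgaggaac
IAA14: gtggtgGGTTGGCCACCGgtgaggaac
IAA17: gttgtgGGATGGCCACCGgtgagatca
IAA19: gtggtgGGGTGGCCACCGgtttgttct
IAA29: gttgttGGATGGCCACCAgtaaaaaca
The core starts at codon 56 in IAA5 and at codon 97 in IAA29, the earliest and the latest of the 10. A valine codon follows the core in all of them. All 10 also encode, ahead of the degron, leucines spaced in the pattern of the motif that recruits the co-repressors.

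The genes lie on chromosomes 1, 3 and 4, and 6 of them form 3 neighbouring pairs that point away from each other. IAA14 (AT4G14550, minus strand, from 8347822 to 8350019 on chromosome 4) and IAA1 (AT4G14560, plus strand, from 8361058 to 8361986) are 11038 bases apart. IAA3 (AT1G04240, minus strand, from 1128188 to 1129551 on chromosome 1) and IAA17 (AT1G04250, plus strand, from 1136258 to 1138613) are 6706 bases apart. IAA2 (AT3G23030, minus strand, from 8180768 to 8181800 on chromosome 3) and IAA7 (AT3G23050, plus strand, from 8194679 to 8197153) are 12878 bases apart, with 1 other locus between them. The other 4 genes have no member beside them. IAA5 (AT1G15580, minus strand) runs from 5365665 to 5366497 and IAA6 (AT1G52830, minus strand) from 19672496 to 19673644 on chromosome 1. IAA19 (AT3G15540, plus strand) runs from 5264024 to 5265678 on chromosome 3, and IAA29 (AT4G32280, plus strand) from 15583387 to 15584769 on chromosome 4. Positions are those of the deposited tables on TAIR10, counted from 1, and no locus in the tables overlaps any of the 10 genes.

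Closely related members could share reads. The coding bases of IAA7 and IAA14 matched at 85.4% of the length of the shorter one, those of IAA1 and IAA2 at 83.2%, and those of IAA3 and IAA4, a family gene outside the 10, at 81.3%. The longest identical run between a transcript of the 10 and any other family transcript was 42 bases, between IAA3 and IAA4. It was 41 bases between IAA7 and IAA14 and 29 between IAA1 and IAA2. The read length is not given in the sources used here.

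Levels are given as FPKM, fragments scaled by transcript length and by the size of the library, which allows genes to be set side by side. All FPKM, p and q values below are those of the authors' deposited tables, 1 per mutant. The tables hold 1 FPKM per gene and genotype and no value per library, so the number of reads behind a value is unknown and no spread between libraries can be shown. Wild type is listed once in each table, and its values for the 10 genes differ between the tables only by the scaling factor of 0.982. Of the genes, 7 had at least 10 FPKM in every genotype, and 3 (IAA5, IAA6 and IAA29) stayed under 5 FPKM.

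IAA2, a strongly auxin-inducible gene, had the highest level, with 199.7 FPKM for wild type beside 180.3 for hdp3-2 in the hdp3-2 table and 203 FPKM for wild type beside 144 for asil1-2 in the asil1-2 table. IAA7, known from the dominant auxin-resistant axr2 mutant, followed with 100.4 and 88.2 FPKM, in the same order, in the hdp3-2 table and 102 and 86.9 FPKM in the asil1-2 table. IAA3, known from the short-hypocotyl mutant shy2, had 81.3 and 70.4 FPKM in the hdp3-2 table and 82.8 and 75.2 FPKM in the asil1-2 table. These levels were all somewhat below wild type in the mutants. IAA17, known from the axr3 mutant, had 68.2 and 43.2 FPKM in the hdp3-2 table and 69.4 and 52.4 FPKM in the asil1-2 table. IAA1, known from the axr5 mutant, had 33.7 and 23.3 FPKM in the hdp3-2 table and 34.4 and 18.4 FPKM in the asil1-2 table. IAA14, whose solitary-root mutant makes no lateral roots, had 21.8 and 12.5 FPKM in the hdp3-2 table and 22.2 and 16.4 FPKM in the asil1-2 table. As listed, IAA17 and IAA14 were lowest in hdp3-2 of the 3 genotypes, and IAA1 was lowest in asil1-2. The place of IAA1 depends on the scaling. With FPKM rescaled to the same sum over nuclear genes its log2 fold change was -1.07 in hdp3-2 and -0.52 in asil1-2.

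IAA19, which acts in hypocotyl growth and bending, was the one gene listed above wild type in both mutants, at 10.6 and 11.5 FPKM in the hdp3-2 table and 10.8 and 13.1 FPKM in the asil1-2 table. Its close relative IAA6 (AT1G52830) had 4.26 and 2.32 FPKM in the hdp3-2 table and 4.34 and 3.66 FPKM in the asil1-2 table. IAA5 (AT1G15580) had 3.28 and 2.32 FPKM in the hdp3-2 table and 3.34 and 1.76 FPKM in the asil1-2 table. IAA29 (AT4G32280), a gene known to respond to shade and warmth, was listed at 1.12 and 1.97 FPKM in the hdp3-2 table and at 1.14 and 0.824 FPKM in the asil1-2 table. It lay above wild type in hdp3-2 and below it in asil1-2.

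**Figure D1:**
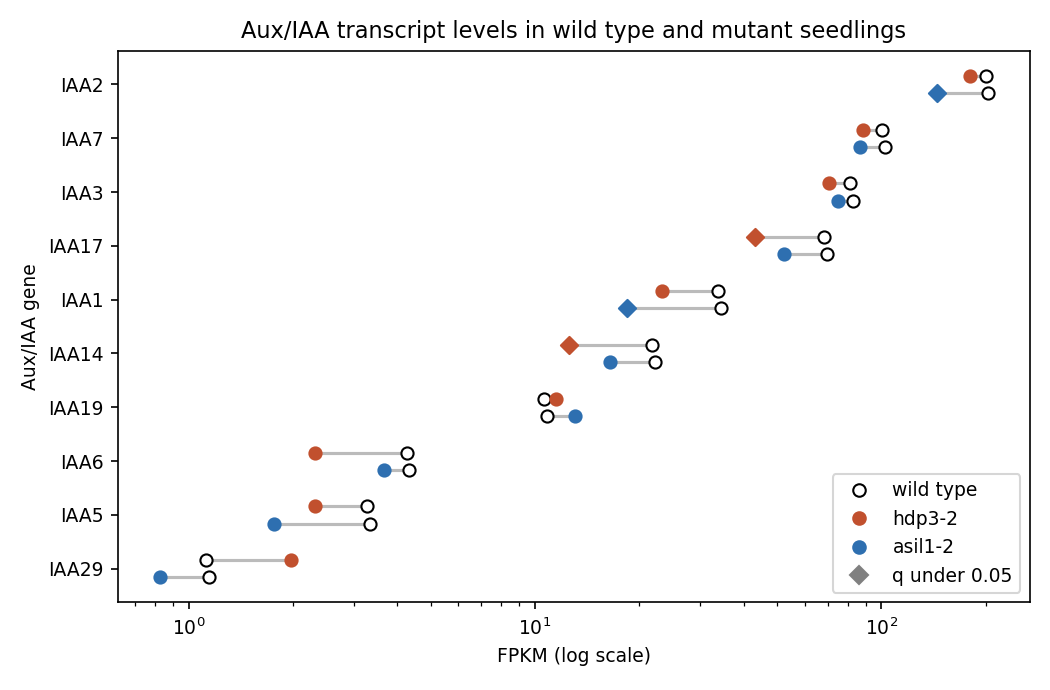
FPKM of the 10 Aux/IAA genes on a log axis, with the upper row of each gene from the hdp3-2 table and the lower row from the asil1-2 table. Open circles are wild type, filled symbols the mutant and diamonds the values with a q under 0.05, which are IAA14 and IAA17 in hdp3-2 and IAA1 and IAA2 in asil1-2.

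The order of the 10 levels was the same in wild type and in both mutants, from IAA2 through IAA7, IAA3, IAA17, IAA1, IAA14, IAA19, IAA6 and IAA5 down to IAA29. Whether neighbours in this order differ beyond the spread between libraries was not tested, since no library values were used here. In hdp3-2 IAA6 and IAA5 were listed at 2.321 and 2.319 FPKM. The 4 most abundant genes, IAA2, IAA7, IAA3 and IAA17, gave 85.7% of the summed level of the 10 in wild type, 87.6% in hdp3-2 and 86.9% in asil1-2. The summed level was 436 FPKM in hdp3-2 against 524 FPKM in wild type, or 83.2%. It was 413 FPKM in asil1-2 against 534 FPKM in wild type, or 77.3%. These sums depend on the scaling. With FPKM rescaled to the same sum over nuclear genes they were 57.3% of wild type in hdp3-2 and 101% in asil1-2. With the 9 nuclear genes that are among the 5 highest of any genotype left out of the nuclear sum, they were 87.2% and 83.4%. This choice was made after seeing the data. One of the 9, MIR164C, a locus of 120 bases, was listed at 0 FPKM in wild type and 203790 in hdp3-2. In RNA from seedlings, fewer cells that express a gene and less RNA of it per cell cannot be told apart.

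In hdp3-2 the transcripts of IAA14 and IAA17, which both act in root development, were called lower, and no member was called higher. IAA7, the nearest family gene of both by coding bases (85.4% and 73.8%), was not called. IAA14 was 1.74-fold lower than wild type, a log2 fold change of -0.80 ± 0.31 (SE), and passed the authors' Cuffdiff test with q = 0.0222. IAA17 was 1.58-fold lower, a log2 fold change of -0.66 ± 0.28 (SE), with a q of 0.0477, close to the threshold of 0.05. So 2 of 10 members were called lower and 0 higher, where 1.78% of the 20177 tested genes were called lower and 1.3% higher. IAA14 lay lower on the log2 fold scale than all but 4.47% of tested genes, and IAA17 than all but 6.94%. Neither call held at a q under 0.01, nor when the deposited statistic was read as a normal deviate in place of the deposited p, which gave adjusted p of 0.437 for IAA14 and 0.671 for IAA17.

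The other 8 members did not pass in hdp3-2. IAA6 had the largest difference among them, a log2 fold change of -0.88 ± 0.52 (SE) with an unadjusted Cuffdiff p of 0.0218 and a q of 0.255. IAA1 had -0.54 ± 0.31 (SE), with an unadjusted Cuffdiff p of 0.0132 and a q of 0.192. Both are therefore under an unadjusted p of 0.05 and short of the corrected threshold. IAA5 had a log2 fold change of -0.50 ± 0.68 (SE), IAA3 of -0.21 ± 0.28, IAA7 of -0.19 ± 0.29 and IAA2 of -0.15 ± 0.28. IAA19 had 0.11 ± 0.36 (SE). IAA29 had 0.81 ± 0.64 (SE), the one value well above 0, with a Cuffdiff q of 0.459. Each SE was derived by dividing the log2 fold change by the deposited statistic, and the low-abundance genes IAA5, IAA6 and IAA29 had the largest.

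In asil1-2 the transcripts of IAA1 and IAA2, the pair of close relatives induced rapidly by auxin, were called lower, and again no member was called higher. IAA1 was 1.87-fold lower than wild type, a log2 fold change of -0.90 ± 0.28 (SE), and passed the authors' Cuffdiff test with q = 0.00165. Its Cuffdiff p of 5e-05 is the smallest value in the deposited tables and is shared with other genes, among them ARF11, PIF7 and GLK1 in asil1-2. IAA2 was 1.41-fold lower, a log2 fold change of -0.50 ± 0.24 (SE), with a q of 0.0422. The count was 2 of 10 members lower and 0 higher, where 5.72% of the 20205 tested genes were called lower and 2.71% higher. IAA1 lay lower than all but 3.35% of tested genes, and IAA2 than all but 12.6%. At a q under 0.01 IAA1 alone stayed called, and with the statistic read as a normal deviate neither did, with adjusted p of 0.0505 for IAA1 and 0.450 for IAA2.

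IAA17 and IAA14, called in hdp3-2, had log2 fold changes of -0.41 ± 0.25 (SE) and -0.44 ± 0.26 in asil1-2. Their unadjusted Cuffdiff p of 0.0198 and 0.0187 became q values of 0.141 and 0.136. IAA5 had the lowest log2 fold change in asil1-2, -0.92 ± 0.67 (SE), with a Cuffdiff q of 0.275. Its size was near that of IAA1, with an error more than 2 times as large. IAA29 had -0.47 ± 0.71 (SE), IAA6 had -0.25 ± 0.43, IAA7 had -0.23 ± 0.25 and IAA3 had -0.14 ± 0.24. IAA19 had 0.27 ± 0.31 (SE).

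**Figure D2:**
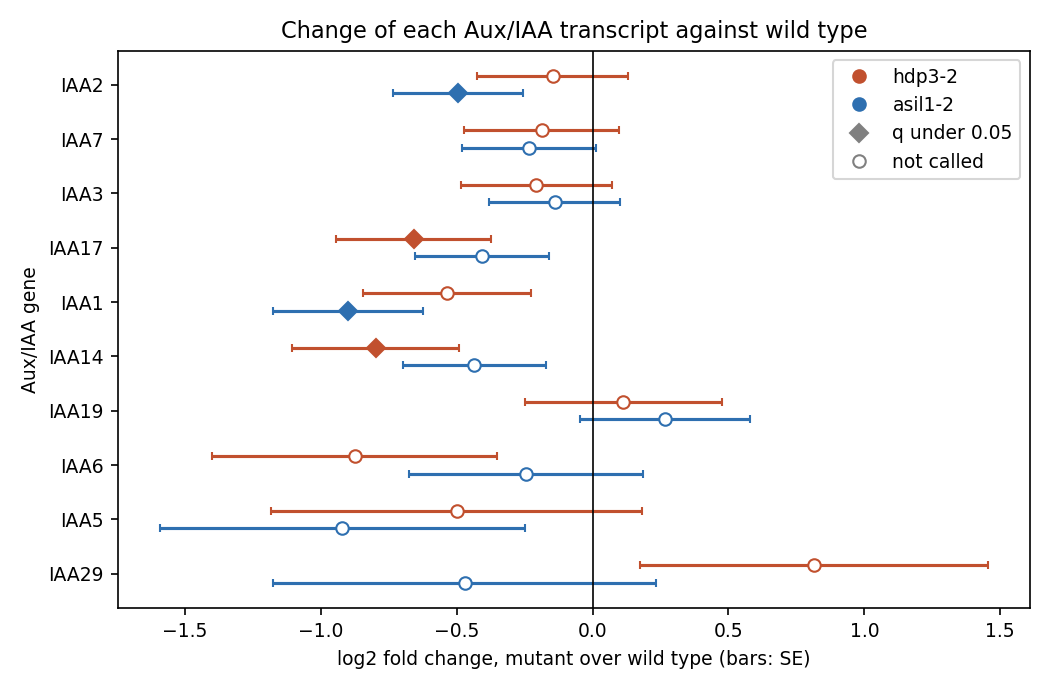
Log2 fold change of each Aux/IAA gene against wild type, with bars of 1 SE derived from the authors' statistic. Filled diamonds have a q under 0.05, and they are IAA14 and IAA17 in hdp3-2 and IAA1 and IAA2 in asil1-2, all below 0. With FPKM rescaled to equal sums over nuclear genes, IAA19 changes side in hdp3-2, and IAA3, IAA6 and IAA7 change side in asil1-2.

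Of the list, 8 of 10 members had a log2 fold change below 0 in hdp3-2, with a median of -0.35, beside 58.7% of tested genes below 0 and a median of -0.06 over all tested genes. In asil1-2 it was 9 of 10 with a median of -0.42, beside 60.3% and -0.08. Rescaling FPKM to the same sum over nuclear genes gave 9 of 10 below 0 in hdp3-2, where IAA19 turned negative, and 6 of 10 in asil1-2, where IAA3, IAA6 and IAA7 turned positive. The sum over nuclear genes differed from wild type by 0.54 on the log2 scale in hdp3-2 and by -0.38 in asil1-2, which the rescaling takes off every gene. It rests on few genes: the 5 highest held 37.0% of the nuclear sum in wild type, 57.4% in hdp3-2 and 23.7% in asil1-2, and AT4G39366, a locus of 120 bases, was listed at 373059 FPKM in wild type and 0 in asil1-2. Without the 9 genes that are among the 5 highest of any genotype the sums differed by -0.07 and -0.11, and 8 and 9 of the members were below 0. Under the rescaling to all nuclear genes the called members stayed below 0, at -1.34 for IAA14 and -1.20 for IAA17 in hdp3-2 and at -0.52 for IAA1 in asil1-2, while IAA2 in asil1-2 went to -0.11, less than its SE of 0.24 from 0. Without the 9 genes those values were -0.73, -0.59, -0.79 and -0.39. Both comparisons share the wild-type libraries, so their likeness is not independent evidence.

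The mutants were not shown to differ in any of the 10 genes. The difference of the log2 fold changes, hdp3-2 minus asil1-2, was tested by a z test over 19977 genes, of which 0.13% passed at an adjusted p under 0.05 and 0 of the 10 did. By the same z test 0 of the 10 had an unadjusted p under 0.05. The largest difference was that of IAA29, 1.29 ± 0.95 (SE), with an unadjusted p of 0.177 and an adjusted p of 1.00 in that z test. For IAA1 the difference was 0.37 ± 0.41, for IAA2 0.35 ± 0.37, for IAA14 -0.36 ± 0.40 and for IAA17 -0.25 ± 0.38. IAA14 and IAA17 are therefore not shown to be particular to hdp3-2, nor IAA1 and IAA2 to asil1-2. The z test sums both variances although wild type is shared, which makes it conservative. It was not run with FPKM rescaled to the same sum over nuclear genes, so its outcome under that scaling is unknown. There IAA14 had -1.34 in hdp3-2 and -0.05 in asil1-2, and IAA17 had -1.20 and -0.03. IAA1 had -1.07 and -0.52, IAA2 had -0.68 and -0.11, and IAA29 had 0.28 and -0.09.

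Ratios between members within a genotype do not depend on how a library was scaled. IAA1 stood at 1.55 times the FPKM of its neighbour IAA14 in wild type, at 1.86 times in hdp3-2 and at 1.12 times in asil1-2. The ratio of this pair thus moved in opposite directions in the mutants. IAA17 stood at 0.839 times the FPKM of its neighbour IAA3 in wild type, at 0.614 times in hdp3-2 and at 0.697 times in asil1-2. IAA2 stood at 1.99 times the FPKM of IAA7 in wild type, at 2.04 times in hdp3-2 and at 1.66 times in asil1-2. Of the IAA14 and IAA1 pair, IAA14 was called in hdp3-2 and IAA1 in asil1-2, while in the other pairs IAA17 and IAA2 were called and their neighbours IAA3 and IAA7 were not. The ratios have no error here, since no value per library was used.

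The stretch upstream of each start was searched, because members called in a mutant could share elements there. Letters were searched on both strands in the 250 bases before the annotated start in RefSeq TAIR10.1. They were TGTCTC, the general auxin response element bound by ARF proteins, TGTCGG, a form they bind more strongly, CACGTG, the G-box bound by light-signalling factors such as the PIFs, and GTGATT, a GT element described for ASIL1. The first pair share their first 4 letters, and no matches in the 10 windows overlapped. The windows of the 4 called genes and of IAA19, which has the most matches, read as follows, 5′ to 3′ along each gene's strand, with matches in capitals.
IAA1, chr4:8360746-8360995, plus strand: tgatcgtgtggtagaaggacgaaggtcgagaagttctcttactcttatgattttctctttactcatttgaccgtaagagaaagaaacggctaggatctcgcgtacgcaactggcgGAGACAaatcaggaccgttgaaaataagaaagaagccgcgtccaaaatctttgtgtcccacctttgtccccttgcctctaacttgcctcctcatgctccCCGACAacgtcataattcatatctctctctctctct
IAA2, chr3:8182096-8182345, minus strand: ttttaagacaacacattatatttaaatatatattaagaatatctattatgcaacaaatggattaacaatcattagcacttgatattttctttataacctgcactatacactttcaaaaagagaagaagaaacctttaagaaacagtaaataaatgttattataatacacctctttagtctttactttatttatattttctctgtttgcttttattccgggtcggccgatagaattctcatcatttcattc
IAA14, chr4:8350264-8350513, minus strand: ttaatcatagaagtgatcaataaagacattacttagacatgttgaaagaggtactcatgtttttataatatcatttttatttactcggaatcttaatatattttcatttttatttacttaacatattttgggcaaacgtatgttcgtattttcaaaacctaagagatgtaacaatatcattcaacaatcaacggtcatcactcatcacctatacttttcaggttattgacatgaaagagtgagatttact
IAA17, chr1:1135828-1136077, plus strand: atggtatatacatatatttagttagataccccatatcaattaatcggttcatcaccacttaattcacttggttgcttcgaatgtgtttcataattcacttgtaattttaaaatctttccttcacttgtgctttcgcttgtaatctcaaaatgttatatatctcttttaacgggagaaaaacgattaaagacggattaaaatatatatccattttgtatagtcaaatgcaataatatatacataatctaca
IAA19, chr3:5263751-5264000, plus strand: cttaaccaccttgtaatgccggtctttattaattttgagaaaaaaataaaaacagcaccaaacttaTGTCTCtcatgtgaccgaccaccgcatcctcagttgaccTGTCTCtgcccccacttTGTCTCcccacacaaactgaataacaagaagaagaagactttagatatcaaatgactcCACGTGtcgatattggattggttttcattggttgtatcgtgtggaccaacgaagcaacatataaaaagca
IAA1 holds TGTCTC 135 bases and TGTCGG 36 bases before its start, both on the opposite strand. IAA2, IAA14 and IAA17 hold none of the 4 motifs in this window. IAA19 holds TGTCTC 3 times and CACGTG once, at 70 bases before its start.

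Among the 10 genes TGTCTC is found in 4 windows (IAA1, IAA5, IAA6 and IAA19), beside 10.9% of the windows of 27443 nuclear protein-coding genes. TGTCGG is found in 2 (IAA1 and IAA5), beside 4.16%. CACGTG is found in 2 (IAA7 and IAA19), beside 6.49%. GTGATT is found in 0 of 10, beside 15.6%. These are matches of letters in a short window, and the data hold no binding measurement.

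**Figure D3:**
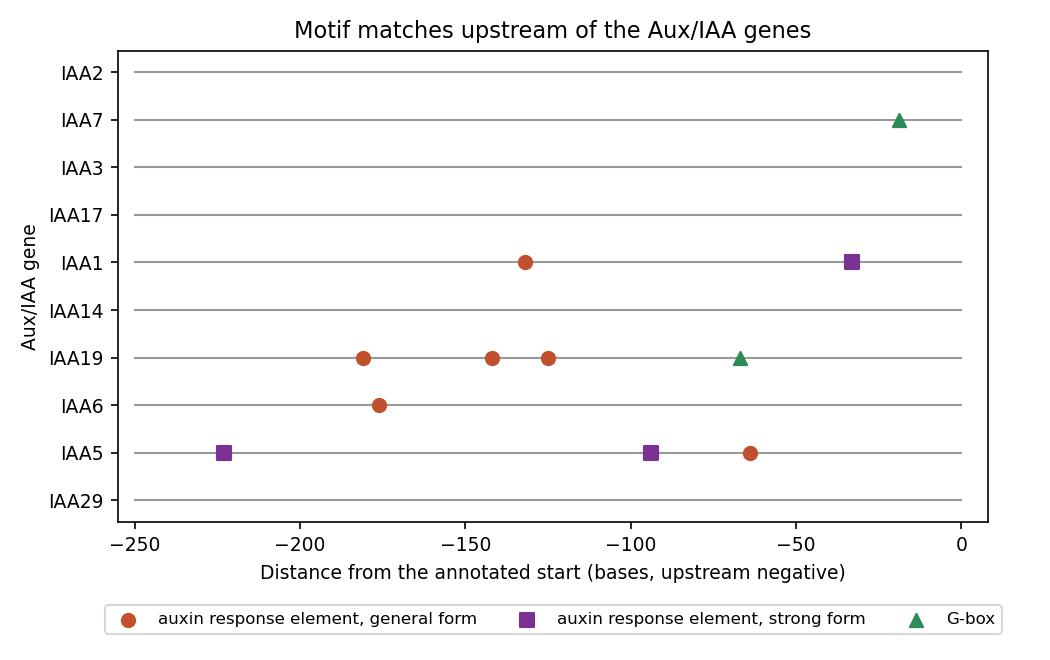
Positions of the motif matches in the 250 bases upstream of each Aux/IAA gene, as distance of the match from the annotated start. IAA19 and IAA5 carry the most matches, and IAA2, IAA3, IAA14, IAA17 and IAA29 carry none.

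Of the other 19 Aux/IAA genes, 14 were tested in hdp3-2 and 0 were called, with 0 at an unadjusted Cuffdiff p under 0.05. Over all tested genes 12.9% had such a p in hdp3-2 and 20.1% in asil1-2, and the counts below are read against these shares. In hdp3-2 the log2 fold changes of these 14 ran from -0.38 to 0.24 with a median of -0.02, beside -0.35 for the 10. In asil1-2, 15 were tested, 3 had an unadjusted Cuffdiff p under 0.05 and 1 was called. It was IAA28 (AT5G25890), a repressor of lateral root formation, which fell from 35.8 to 23.6 FPKM, a log2 fold change of -0.60 ± 0.27 (SE), with a Cuffdiff q of 0.0228. The median of these 15 was -0.09, beside -0.42 for the 10. Because the 10 were chosen with earlier results of these data known, their contrast with the other family genes is no independent evidence. It was not tested. IAA4 (AT5G43700), of the group of IAA1 to IAA4, was not called, at -0.19 ± 0.28 (SE) in hdp3-2 and -0.41 ± 0.24 in asil1-2. IAA16 (AT3G04730), of the group of IAA7, IAA14 and IAA17, was not called either, at -0.28 ± 0.28 (SE) in hdp3-2 and -0.33 ± 0.24 in asil1-2. Both were chosen for their place in the family after their values were seen.

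The receptors and the machinery around them were next compared. Of 10 genes for the F-box receptors, the other subunits of their ubiquitin ligase and its regulator AXR1, 0 were called in hdp3-2 and 0 in asil1-2, with 0 and 2 at an unadjusted Cuffdiff p under 0.05. The receptor gene AFB3 had the largest difference, with log2 fold changes of -0.25 ± 0.32 (SE) in hdp3-2 and -0.51 ± 0.28 in asil1-2. The other gene under that p in asil1-2 was AXR1, picked after its value was seen, at 0.49 ± 0.26 (SE). The median of these 10 genes was 0.05 in hdp3-2 and 0.07 in asil1-2. Of 5 TOPLESS-type co-repressor genes 0 were called in either mutant, with 0 at an unadjusted Cuffdiff p under 0.05 in each. The values farthest from 0 were 0.18 ± 0.28 (SE) for TPR2 in hdp3-2 and -0.20 ± 0.24 for TPR4 in asil1-2.

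The ARF family includes the partners that Aux/IAA proteins hold inactive. Of 15 ARF genes 0 were called in hdp3-2, with 1 at an unadjusted Cuffdiff p under 0.05, and 3 had such a p in asil1-2. In asil1-2, ARF11 (AT2G46530) fell from 9.68 to 4.98 FPKM, a log2 fold change of -0.96 ± 0.28 (SE), with a Cuffdiff q of 0.00165, and 0 were called higher. In hdp3-2 ARF11 had -0.42 ± 0.31 (SE). The ARF median was -0.08 in hdp3-2 and -0.15 in asil1-2.

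Auxin synthesis, transport and removal gave no calls. Of 14 synthesis genes of the TAA and YUC families 8 were tested, and 0 and 2 had an unadjusted Cuffdiff p under 0.05 in hdp3-2 and asil1-2. TAR2 had -0.51 ± 0.28 (SE) in asil1-2. In hdp3-2 the tested genes ran from -0.49 to 0.61 in log2, the latter for YUC3, which reached the 1 FPKM of the naming rule in the mutant alone. Of 14 transport genes 13 were tested, with 1 and 4 at an unadjusted Cuffdiff p under 0.05, and the efflux carrier gene PIN3 had -0.47 ± 0.24 (SE) in asil1-2. In hdp3-2 the gene under that p was PIN4, also an efflux carrier gene and picked after its value was seen, at -0.50 ± 0.28 (SE). PIN6 had -0.55 ± 0.57 (SE) there and reached 1 FPKM in wild type alone. Of 10 genes for auxin conjugation and oxidation 8 were tested, with 2 and 3 at an unadjusted Cuffdiff p under 0.05. Among these the conjugating enzyme gene GH3.2, also induced by auxin, had 0.53 ± 0.30 (SE) in asil1-2, and the oxidase gene DAO2 had 0.46 ± 0.33 in hdp3-2. The other gene under that p in hdp3-2 was GH3.6, picked after its value was seen, at -0.41 ± 0.28 (SE). Below 0 lay 6 of the 8 in hdp3-2, with a median of -0.14, and 4 of the 8 in asil1-2, with a median of -0.05. Of 3 LBD genes, targets of ARF7 and ARF19 in lateral roots, 2 were tested, 0 were called and 0 had an unadjusted Cuffdiff p under 0.05 in either mutant. LBD16 had 0.85 ± 0.79 (SE) in asil1-2, where it reached 1 FPKM in the mutant alone, and LBD29 had -0.58 ± 0.95 in hdp3-2, under 1 FPKM in both genotypes.

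IAA19 and IAA29 are known targets of the PIF factors, so 12 light and elongation genes were read beside them, 11 of them tested. In hdp3-2, 1 was called higher and 0 lower: XTH15, which encodes a cell wall enzyme, rose by 1.16 ± 0.28 (SE) in log2, with a Cuffdiff q of 0.00374. In asil1-2, XTH15 rose by 0.90 ± 0.25 (SE), and 4 genes were called lower. They were PRE1, a growth-promoting regulator, at -1.74 ± 0.73 (SE), HFR1, an inhibitor of PIFs, at -0.87 ± 0.34, PIF7 at -0.81 ± 0.26 and HY5, which promotes the light response, at -0.79 ± 0.29. Their Cuffdiff q values in asil1-2 ran from 0.00165 to 0.0431. These 4 of 11 tested were called lower, beside 5.72% of all tested genes. An unadjusted Cuffdiff p under 0.05 was found for 3 of the 11 in hdp3-2 and 6 in asil1-2. In hdp3-2, PRE1 and HY5 were under that p but not called, with Cuffdiff q values of 0.142 and 0.0969. Their log2 fold changes there were -1.32 ± 0.66 (SE) and -0.69 ± 0.33. HFR1 and PIF7 had -0.41 ± 0.37 (SE) and -0.25 ± 0.29 in hdp3-2. PRE1 is a gene of low level, listed at 1.34 FPKM in hdp3-2 and 1.02 FPKM in asil1-2. IAA19 and IAA29 were not called in asil1-2.

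**Figure D4:**
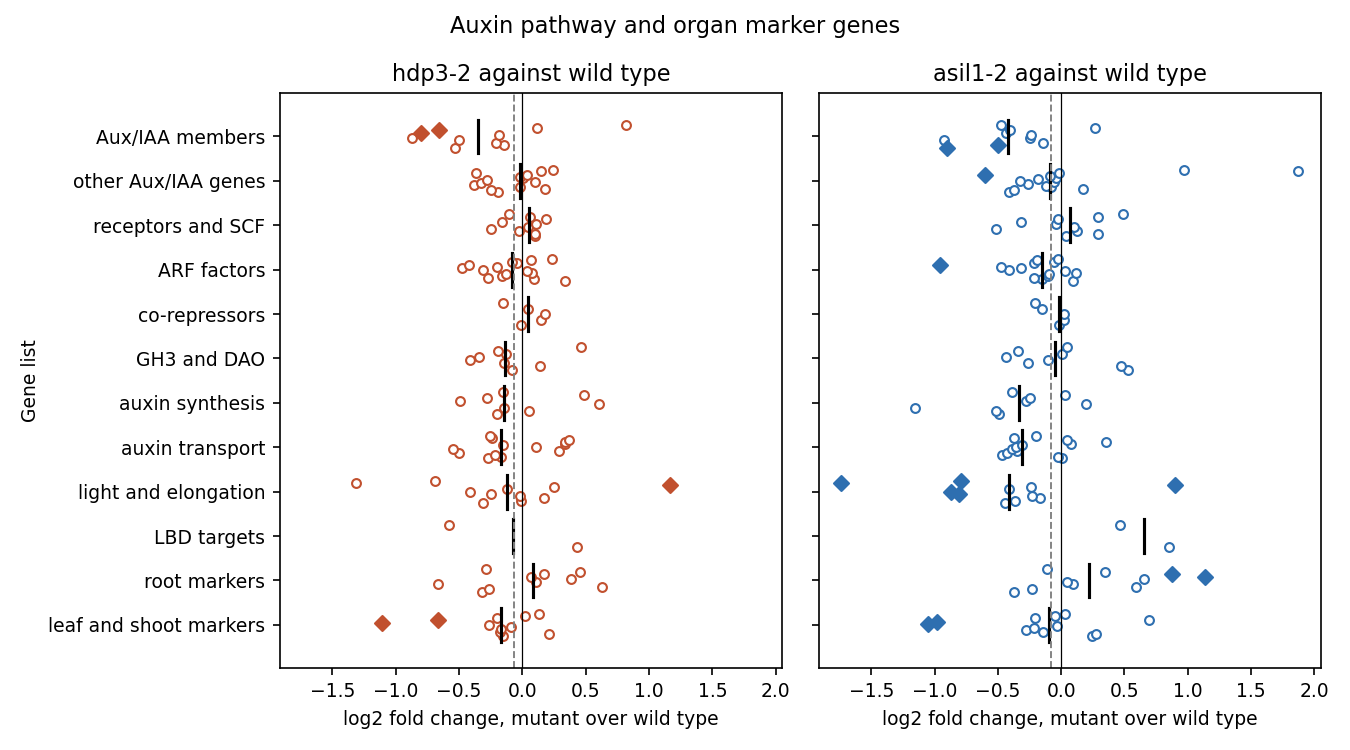
Log2 fold change of every tested gene of each list against wild type, with filled diamonds for a q under 0.05, black bars for the list medians and a dashed line for the median of all tested genes. The bar of the Aux/IAA members lies at -0.35 in hdp3-2 and -0.42 in asil1-2.

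IAA14 and IAA17 are known for roles in roots, so organ markers were read beside them. Of 11 root markers 10 were tested in hdp3-2, where 0 were called and 0 had an unadjusted Cuffdiff p under 0.05. The summed root marker level was 910 FPKM in hdp3-2 against 1084 FPKM in wild type, and 1046 FPKM against 1104 FPKM in the asil1-2 table. PYK10, a beta-glucosidase gene, made up most of these sums, and without it, a choice made after seeing the data, the other 10 summed to 90.3 against 81.1 FPKM and to 100.2 against 82.6 FPKM. The median log2 fold change of the tested root markers was 0.09 in hdp3-2 and 0.22 in asil1-2. In asil1-2 the root hair wall protein genes PRP1 and PRP3 rose by 1.13 ± 0.41 (SE) and 0.88 ± 0.30, and 0 root markers were called lower. These 2 of 10 tested were called higher, beside 2.71% of all tested genes. An unadjusted Cuffdiff p under 0.05 was found for 4 of the 10 in asil1-2, and 3 of the 10 lay below 0. Among the 4 was SCR, picked after its value was seen, at -0.37 ± 0.25 (SE). Among 12 leaf and shoot markers GLK1 and GLK2, regulators of chloroplast development, fell in both mutants, by 1.11 and 0.66 on the log2 scale in hdp3-2 (SE 0.28 and 0.28) and by 1.05 and 0.98 in asil1-2 (SE 0.24 and 0.24). The median of the tested leaf and shoot markers was -0.17 in hdp3-2 and -0.10 in asil1-2. In hdp3-2, 3 of 11 tested lay above 0, in asil1-2 4 of 12, and only GLK1 and GLK2 were called. None of the 11 root and 12 shoot markers was listed at 0 FPKM in wild type. The part that organ makeup has in the Aux/IAA values was not tested.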

How the data were processed

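RNA sequencing of whole seedlings of each mutant (2 libraries each) was compared by the authors with wild type. The number of wild-type libraries and the age and growth conditions of those plants are not given in the labels used here. TopHat2, Cufflinks, Cuffdiff and deepTools and the build TAIR10 are named in the submitters' processing notes, without versions. The deposited FPKM values were made by the authors, 1 per gene and genotype, scaled within each table. The deposited score is the test statistic of Cuffdiff, and p-value and q-value were likewise deposited by the authors, per the file headers. The deposited fold column was left aside because it holds spreadsheet error text. The sources used here do not give versions, options, strand or depth, so precision rests on the authors' statistic.

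Genes with the status OK were tested, and those with a deposited q under 0.05 were called. The labels name no separate cultures behind the libraries, so the p-values reflect a spread between libraries that may be technical. Log2 fold changes were computed from FPKM, and the SE is the fold change over the statistic. Read back as a z value, the deposited p exceeded the statistic by a median factor of 1.41 (hdp3-2) and 1.42 (asil1-2), so these errors may be too large. The difference between the mutants was tested across all genes with a z test and Benjamini-Hochberg adjustment, which was also tested on simulated data.

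Members and the 11 other gene lists were chosen with earlier results of these data known. All members are named, with the called genes of each list (up to 6 with the largest change) or, in a list without calls in either comparison, the tested gene with the largest change and at least 1 FPKM. Sequences come from RefSeq TAIR10.1: of 27973 nuclear loci with an entry there, 71.6% share a start or an end with an annotated exon or coding end, and all lie within its chromosomes. Other settings tried were FPKM minimums of 1 and 10, a log2 fold change of at least 1, a threshold of 0.01 on q, a recomputed adjustment, a normal reading of the statistic, leaving out organelle genes, pseudocounts of 1 and 0.1 FPKM, centring, rescaling to the nuclear sum and, for the difference, a summed variance multiplied by 0.5. Scripts ran in Python 3.11.15 with SciPy 1.17.1, pandas 2.3.3, matplotlib 3.10.9 and NumPy 2.4.6.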

Additional observations from a re-analysis of the deposited data

How the results depend on the processing

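The calls of the 4 members held with an FPKM minimum of 1 or 10, with a recomputed adjustment and without organelle genes. At a q under 0.01, 0 members were called in hdp3-2 and 1, IAA1, in asil1-2, and with a minimum log2 fold change of 1 the counts were 0 and 0. Under a normal reading of the statistic they were 0 and 0, with adjusted p of 0.437 for IAA14 and 0.671 for IAA17 in hdp3-2 and of 0.0505 for IAA1 and 0.450 for IAA2 in asil1-2. Over all genes the counts in hdp3-2 and asil1-2 were 341 and 918 at a q under 0.01, 274 and 453 with the minimum fold change and 147 and 438 under the normal reading, against 622 and 1702. Which reading is closer to the true error was not tested.

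Of the 10 members, 8 in hdp3-2 and 9 in asil1-2 stayed below 0 with either pseudocount, with centring on the median of all tested genes and with rescaling to the nuclear sum without the 9 genes, a setting added after seeing the data. With rescaling to all nuclear genes the counts were 9 and 6. The count of members that differ between the mutants was 0 in every alternative run for it. Among these was the summed variance multiplied by 0.5, where 125 of all genes passed, against 26. Rescaling to the nuclear sum was not run for this count.

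No paired analysis was possible because the tables hold 1 value per genotype, and for the same reason leaving out a library was not run. With the depth unknown, the 3 members under 5 FPKM, IAA5, IAA6 and IAA29, had the largest SE of the 10 in both comparisons.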
